A study of Homo sapiens with 6 samples.

Results

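The long arm of human chromosome 8, band 8q, was followed gene by gene in a cholangiocarcinoma (bile duct cancer) cell line. Genes placed beyond the centromere of chromosome 8 by the RefSeq gene table of GRCh38 were chosen by their detection calls: any probe had to have a detection p under 0.05 on 3 or more arrays. VIRMA, YTHDF3, CCNE2 and FZD6 were left out, as were symbols starting with RPL, RPS, NDUF, UQCR, COX, SLC or RAB plus a digit. Those prefixes mark mainly genes of cytosolic ribosomes, the respiratory chain, solute carriers and RAB proteins. The exclusion went by symbol and not by role, so CYC1 of the respiratory chain was kept. These rules gave 247 of the 11586 genes tested in all. The arm itself was selected on its fold changes, with a shift of chromosome 8 already known from the same arrays, so the overall counts and medians below are descriptions without a test.

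Gene expression was measured on 6 single-colour Illumina bead arrays in 2 stable derivatives of the HuCCT1 line. The mock group (3 arrays, numbered 4, 5 and 6 in the titles) was HuCCT1 cells with an empty vector, and the WTAP group (3 arrays with the same numbers) was HuCCT1 cells labelled as overexpressing WTAP. The WTAP protein holds the RNA adenosine methyltransferase METTL3-METTL14 in nuclear speckles. All cells shared the same culture medium. The labels do not say whether the stable cells were clones or pools, nor that the arrays came from separate cultures, so p-values reflect just how far these samples scatter, and that scatter may be technical.

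A chromosome arm is no pathway: its genes share a position, not a role. Many carcinomas carry extra copies of 8q, and genes inside a gained stretch tend to be transcribed more, each by its own degree. The arm is best known for MYC, a transcription factor that drives ribosome production, nucleotide supply and cell division, and it also holds genes of DNA repair, translation initiation, the Mediator complex, membrane traffic and lipid synthesis. DNA copy number was not measured here.

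The labels could not be checked through the targeted gene. The most abundant WTAP probe read 9.84 ± 0.06 in mock cells and 9.90 ± 0.06 in cells labelled WTAP on the log2 intensity scale (SD, n = 3 each), with an adjusted p of 0.703 by limma and the Benjamini-Hochberg method. Its fold had a 95% interval of 0.889 to 1.23. Of 5 WTAP probes, 2 were detected on 3 or more arrays. The other of these 2, detected on all 6 arrays, differed by -0.011 log2 units, WTAP minus mock arrays (limma over all detected probes, adjusted p = 0.970). A probe outside the cloned sequence would not read the transgene, and probe positions were not used here, so every direction below rests on the labels. Each of the 6 arrays had a median bead signal of 191 to 203 and between 15071 and 16307 detected probes out of 29285. All 8 biliary epithelial markers looked up (among them KRT7, KRT19 and EPCAM) were among the tested genes, against 1 of 5 hepatocyte, 2 of 5 fibroblast and 3 of 5 leukocyte markers, and none of these passed the threshold between the groups.

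Transcripts of 8q were shifted upward in the cells labelled WTAP as a modest, widely shared difference. The median log2 fold change (arrays labelled WTAP minus mock arrays) of the 247 genes was 0.29, that is 1.22-fold, where the median over all 11586 tested genes was 0.0030. The change was above 0 in 196 of the 247 genes (79.4%), against 50.4% of all tested genes. The middle of the distribution ran from 0.05 (lower quartile) to 0.50 (upper quartile) on 8q and from -0.22 to 0.23 over all tested genes. RNA came from whole cultures, so a change in the share of cells with a transcript and a change per cell cannot be told apart. With no filter on dim probes, which adds 155 genes of the arm that are hardly detected, the median was 0.12.

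**Figure D1:**
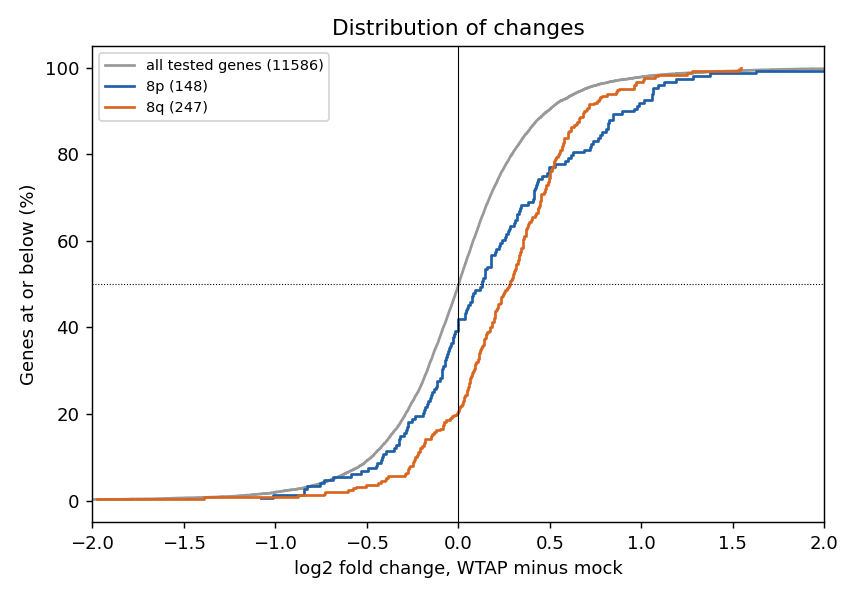
Cumulative share of genes (y axis, %) at or below each log2 fold change of WTAP minus mock arrays (x axis) for the 247 genes of 8q, the 148 of 8p and all 11586 tested genes. The 8q curve crosses 50% at 0.29 and the 8p curve at 0.13, while the curve of all genes crosses it at 0.0030.

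Of the 247 genes, 67 rose and 5 fell (limma, adjusted p under 0.05 over all tested genes), while 175 did not pass. Over all tested genes, 10.5% were called higher and 9.91% lower (20.4% in either direction), and on 8q these shares were 27.1% and 2.02%. The 3 arrays labelled WTAP all lay above the 3 mock arrays in 118 genes and all below them in 13. Over all tested genes 20.2% lay wholly above and 19.5% wholly below. Most called rises were small: 59 of the 67 were under 2-fold, and 8 genes rose and 2 fell at least 2-fold, where 2.11% and 1.92% of all tested genes did. The count of rises was 36 without mock array 5, 38 without mock array 6 or WTAP array 4, and 40 without WTAP array 5, and the count of falls was 3 without mock array 5 or with detection on all 6 arrays required.

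The shift was present on every array. After each gene was centred on its mean over the 6 arrays, the median gene of 8q read -0.10, -0.13 and -0.17 on mock arrays 4, 5 and 6. It read 0.13, 0.13 and 0.15 on WTAP arrays 4, 5 and 6. The groups did not overlap, and the arrays of a group differed from each other by less than the groups did. The arm was chosen on fold changes from these same arrays, so separated medians follow in part from that choice. This separation, here and in the segments along the arm, is therefore only described and lends the shift no further support. The median over all tested genes, centred in the same way, stayed between -0.0012 and 0.0083.

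The shift was present in dim, middle and bright genes, with the fewest rises and the most falls among the dimmest. When the 8q genes were ordered by their mean over all arrays and parted in 3, the median log2 fold change was 0.25 in the 82 dimmest, 0.24 in the 82 of middle level and 0.31 in the 83 brightest genes. The number of rises in these sets was 16, 25 and 26, and the number of falls 3, 2 and 0. The change was above 0 in 54, 70 and 72 of these 8q genes. All tested genes, parted in 3 by level in the same way, had 3862 in each set. Of these, 366, 501 and 351 rose and 372, 440 and 336 fell from the dimmest to the brightest set. Among the 8q genes the median SE was 0.19, 0.13 and 0.12 from the dimmest to the brightest set. An offset added before the logarithm understates the change of dim genes. The part of either in these counts was not tested.

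Of the 402 genes of 8q with a probe after the exclusions, 155 were not detected on 3 arrays. The tested probe was detected on all 6 arrays for 213 of the 247 genes, on 5 for 9, on 4 for 13 and on 3 for 12, and no gene was missing from all arrays of either group. The 12 genes just inside the detection limit had a median log2 fold change of -0.02 (from -0.42 to 0.45), and the 5 genes just outside, detected on 2 arrays, one of 0.08 (from -0.28 to 0.56). Of the 247 genes, 63 had more than 1 detected probe, and all probes of a gene had the same sign in 53 of them, while 0 had probes called in opposite directions. The RefSeq table lists 13 of the 247 as pseudogenes or noncoding RNAs, and probes of pseudogenes such as PTTG3P, FTH1P11, NACA4P and TMED10P1, named here for their kind, may bind the transcripts of their near-identical parent genes. The 17 tested 8q genes left out by symbol had a median of 0.25 (from -0.40 to 1.12), with 5 higher and 0 lower.

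Along the arm the shift ran from the centromere to the telomere. In 9 consecutive segments, 8 of 25 genes and the last of 47, the median log2 fold change was 0.30 (CEBPD to NSMAF), 0.22 (CHD7 to ELOC), 0.36 (TMEM70 to ATP6V0D2), 0.30 (WWP1 to MTDH), 0.19 (LAPTM4B to CTHRC1), 0.33 (DCAF13 to ZHX2), 0.25 (DERL1 to PHF20L1), 0.31 (SLA to GSDMD) and 0.23 (MROH6 to C8orf33). Called rises numbered 4 to 10 in each segment of 25 genes and 13 in the segment of 47, and called falls 0 to 2 in each. Over all tested genes 10.5% were called higher and 9.91% lower. In each of the 9 segments the lowest array labelled WTAP lay above the highest mock array, the nearest pair being -0.02 (mock array 4) and 0.13 (WTAP array 4) in the segment from CEBPD to NSMAF. The lowest segment median was -0.054 with no filter on dim probes, 0.11 in the authors' deposited table of processed values and also when background was left uncorrected, and 0.13 without mock array 6.

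**Figure D2:**
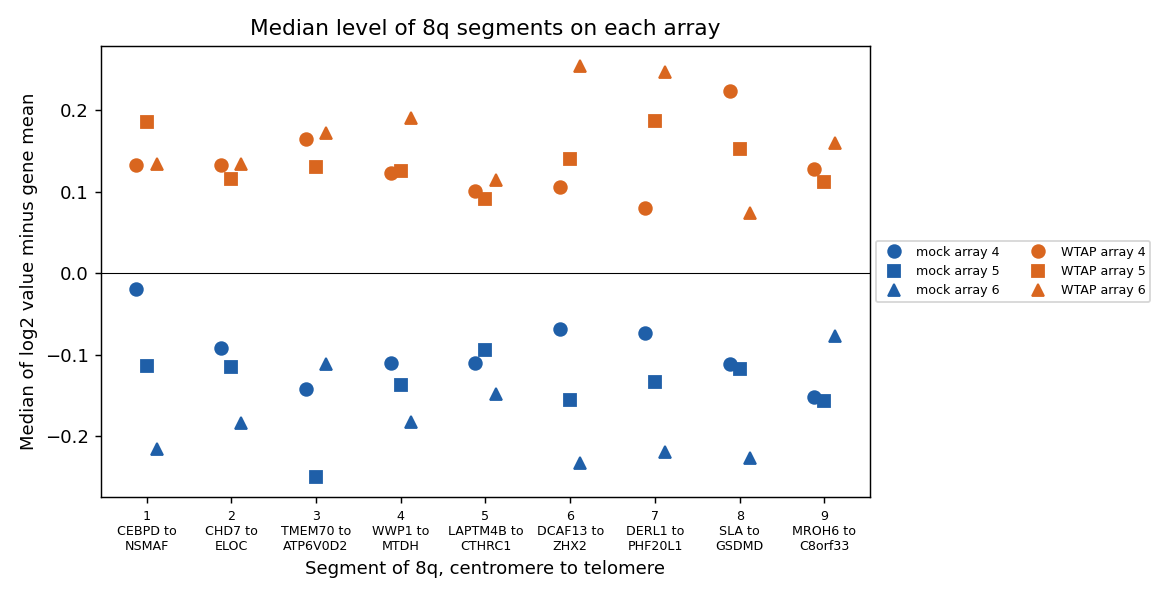
Median over the genes of each 8q segment (x axis, centromere to telomere) of the log2 value minus the gene's mean over the 6 arrays (y axis), 1 point for each array. In all 9 segments the 3 arrays labelled WTAP lie above 0 and the 3 mock arrays below it.

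Shorter stretches were less even. In 16 segments, 15 of 15 genes and the last of 22, medians ran from -0.06 to 0.45, and in 14 of the 16 the arrays of both groups did not overlap. The lowest was the stretch from TRIB1 to KHDRBS3, which holds MYC: 6 of its 15 genes had a change above 0, with 4 called rises and 0 called falls. The highest was the stretch from TRPS1 to ZHX2, with 6 rises and 2 falls among 15 genes, followed by those from DGAT1 to C8orf33 at the telomere (0.45, 9 rises and 0 falls among 22) and from TRAPPC9 to GLI4 (0.45, 6 rises and 0 falls among 15). A running median over 15 genes was above 0 in 227 of 233 windows on 8q.

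The short arm varied more along its length. Its 148 tested genes, taken without exclusions by symbol, had a median log2 fold change of 0.13, and the change was above 0 in 87 (58.8%). Of the 148, 36 rose (24.3%) and 13 fell (8.78%), where the shares were 27.1% and 2.02% on 8q and 10.5% and 9.91% over all tested genes. The excess of called rises was thus found on both arms, and called rises of at least 2-fold numbered 10 on 8p and 8 on 8q. The 25 genes nearest the short arm's end (RPL23AP53 to DLC1) had a median of 0.82 with 14 rises and 1 fall, and the 25 from REEP4 to BNIP3L had -0.25 with 0 rises and 7 falls. Between these, the 25 genes from C8orf48 to NUDT18 had a median of -0.04 with 2 rises and 2 falls. Toward the centromere, segment medians lay within the range of the 8q segments: 0.20 in the 25 genes from PNMA2 to UBXN8 (5 rises, 1 fall) and 0.24 in the 48 from PPP2CB to FNTA (15 rises, 2 falls). Within this region, however, the running median over 15 genes was below 0 at every gene from RBPMS to LOC728024, with a lowest value of -0.098. Over all of 8p the running median was above 0 in 72 of 134 windows and ran from -0.39 to 0.99, against -0.06 to 0.49 on 8q. The 8q median exceeded that of 8p by 0.16, a difference that was not tested. With no filter on dim probes the 8p median was 0.033 and the difference 0.087, and the 8p median was 0.075 in the authors' deposited table of processed values, 0.076 with no background correction and 0.082 with the mean of all detected probes of a gene. Falls on 8p ranged from 5 to 8 without any 1 of WTAP arrays 4 and 5 and mock arrays 4, 5 and 6. At the centromere, FNTA, a subunit of protein farnesyltransferase and the last tested gene of 8p, rose by 0.61 ± 0.12 (SE, limma adjusted p = 0.00961). CEBPD, a transcription factor of the C/EBP family and the first tested gene of 8q, had a log2 fold change of 0.23 ± 0.13 (SE, adjusted p = 0.253).

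**Figure D3:**
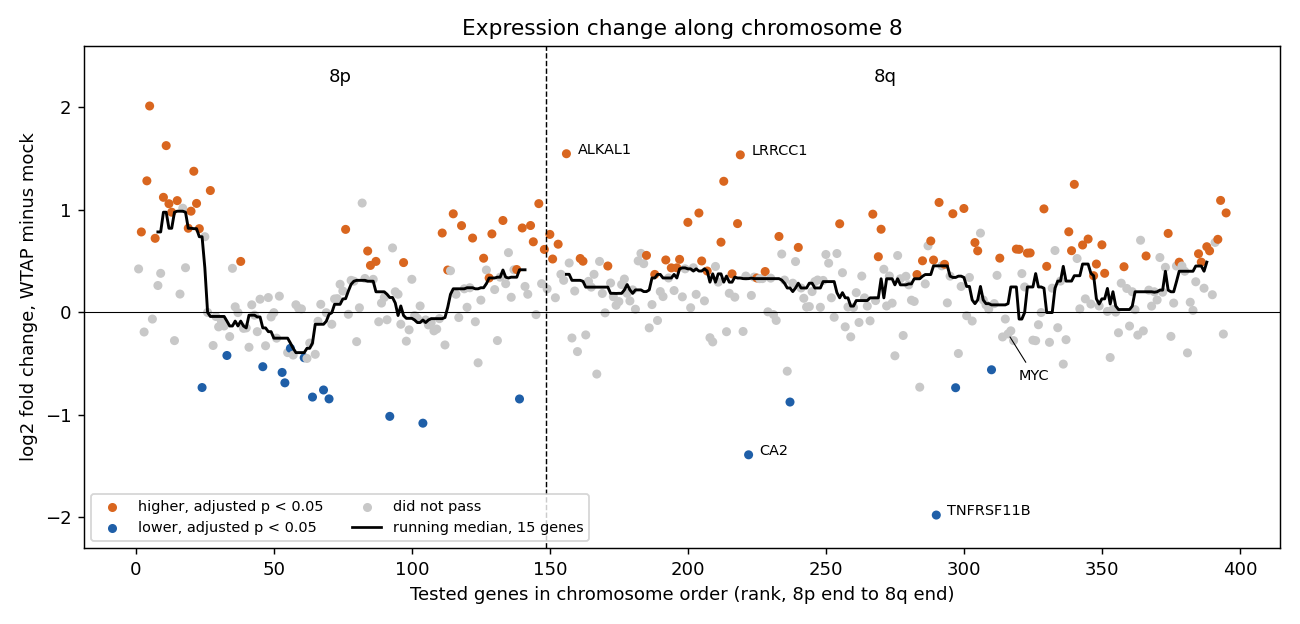
Log2 fold change of WTAP minus mock arrays (y axis) for the 148 tested genes of 8p and 247 of 8q in chromosome order (x axis, rank), with the running median of 15 genes as a black line. The line stays between -0.06 and 0.49 on 8q and swings from -0.39 to 0.99 on 8p, and MYC lies below 0.

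MYC did not follow the arm upward. Its brighter probe read 12.91, 12.96 and 13.05 on mock arrays 4, 5 and 6 and 12.85, 12.59 and 12.85 on WTAP arrays 4, 5 and 6 on the log2 scale. All 3 arrays labelled WTAP lay below all 3 mock arrays, by a margin that did not pass the threshold. The log2 fold change was -0.21 ± 0.12 (SE, limma adjusted p = 0.249), with a 95% interval of -0.48 to 0.06 whose upper end lay under the arm's median of 0.29. The arm's lower quartile of 0.05 lay inside that interval, which is unadjusted. As the arm was chosen for its shift, this comparison is no test of MYC against the arm. Before normalization the signal of this probe was 8004, 8263 and 8822 on the mock arrays and 7580, 5999.6 and 7407 on the arrays labelled WTAP.

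A second MYC probe showed the same order. It read 11.33, 11.31 and 11.32 on mock arrays 4, 5 and 6 and 10.98, 10.42 and 11.09 on WTAP arrays 4, 5 and 6, again without overlap. Its log2 fold change was -0.50 ± 0.18 (SE, limma over all detected probes, adjusted p = 0.0873). WTAP array 5 was the lowest for both probes. Of the 247 genes, 51 had a change below 0 and 29 a lower one than MYC.

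MYC also lay below the median of the genes around it. The 10 tested genes on each side, from FBXO32 to ST3GAL1, had a median log2 fold change of 0.10, with 13 of 20 above 0, 5 called rises and 1 called fall, and 5 of the 20 had a lower value than MYC. The level of MYC minus the median of these 20 genes, each centred on its mean over the arrays, was 0.04, 0.11 and 0.33 on mock arrays 4, 5 and 6. It was -0.11, -0.33 and -0.23 on WTAP arrays 4, 5 and 6. The difference between MYC and the median of its neighbours was -0.31 in log2 fold change, -0.43 with 5 genes on each side and -0.39 with 20, and -0.49 with the mean of all detected probes of a gene.

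The tested genes nearest to MYC on each side did not rise either. Immediately next to it, LRATD2, a gene with a lecithin retinol acyltransferase-like domain, read 11.67, 11.51 and 11.32 on the mock arrays and 11.45, 11.32 and 11.54 on the arrays labelled WTAP, with full overlap of the groups (-0.06 ± 0.13, SE). TRIB1, a pseudokinase that guides C/EBP factors to degradation, had a log2 fold change of -0.24 ± 0.16 (SE), GSDMC, a gasdermin, -0.27 ± 0.21, and the probe annotated to MIR1204, which lies in the PVT1 locus, -0.18 ± 0.33. The MIR1204 and GSDMC probes were each detected on 2 mock arrays and 1 array labelled WTAP, and none of these 4 passed the threshold (limma adjusted p = 0.335 to 0.763). Without mock array 4 the LRATD2 value was 0.021, and without mock array 5 that of MIR1204 was 0.18.

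Beyond these, called rises resumed on both sides. NSMCE2, a SUMO ligase of the SMC5/6 complex, read 9.42, 9.37 and 9.17 on the mock arrays and 9.74, 9.895 and 9.92 on the arrays labelled WTAP, a rise of 0.53 ± 0.12 (SE, limma adjusted p = 0.0164). Its call was lost without WTAP array 5 or mock array 6 (adjusted p = 0.0524 and 0.0530, over 15 alternatives 0.00405 to 0.0530). CYRIB, an inhibitor of RAC1 signalling to the actin nucleation machinery, read 8.80, 8.48 and 8.66 on the mock arrays and 9.33, 9.20 and 9.27 on the arrays labelled WTAP, a rise of 0.62 ± 0.12 (SE, adjusted p = 0.00952). ASAP1, which turns off ARF GTPases at focal adhesions, read 12.58, 12.41 and 12.33 on the mock arrays and 13.10, 13.05 and 13.01 on the arrays labelled WTAP, a rise of 0.62 ± 0.11 (SE, adjusted p = 0.00739), and its other 2 probes rose by 0.65 and 0.68. On the probes given for these 3 genes the groups did not overlap. On a second CYRIB probe they did, with a value of 0.45 ± 0.23 (SE, limma over all detected probes, adjusted p = 0.214). WASHC5, of the WASH complex on endosomes, had a value of 0.36 ± 0.12 (adjusted p = 0.0723), which passed with no background correction (0.0280), with a trended and robust variance (0.0257) and in the authors' deposited table of processed values (0.0286, over 15 alternatives 0.0257 to 0.191). SQLE, the squalene epoxidase of sterol synthesis, had one of 0.09 ± 0.19 with overlapping groups, and of -0.027 without WTAP array 5 and -0.091 without mock array 6. In all, 3 of the 9 tested genes of the list around MYC rose and 0 fell, with a median of 0.09.

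**Figure D4:**
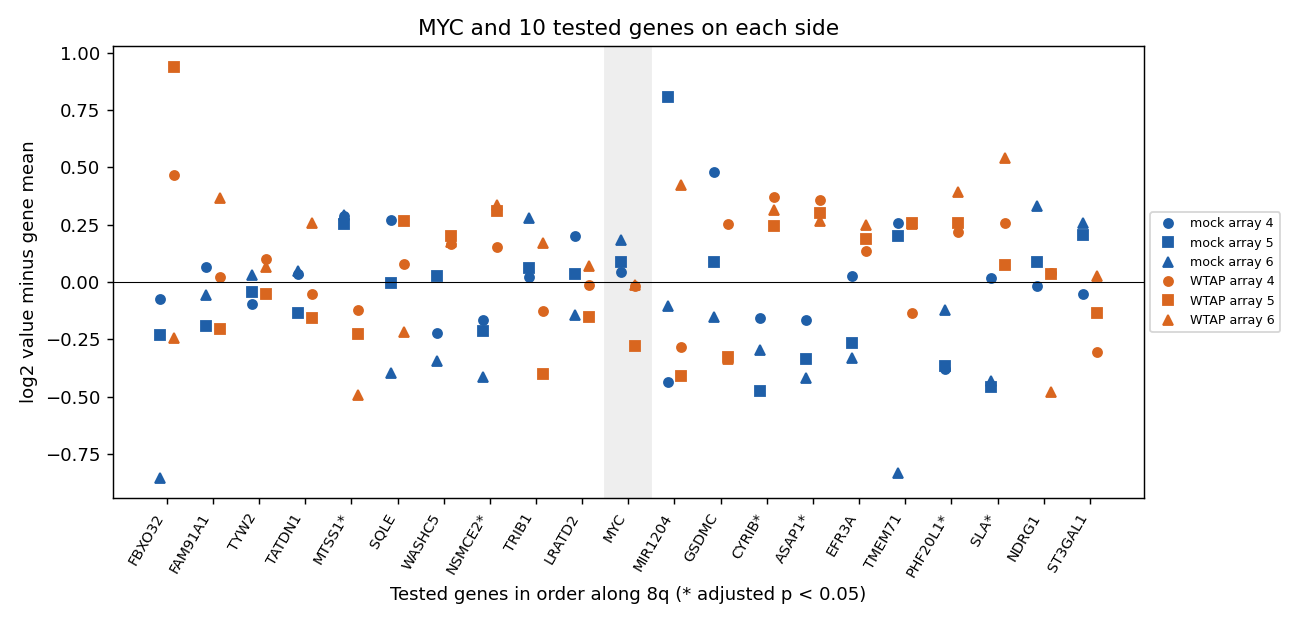
Log2 value minus the gene's mean over the 6 arrays (y axis) on each array for MYC (shaded) and the 10 tested genes on each side in chromosome order (x axis). For MYC the 3 mock arrays lie above the 3 arrays labelled WTAP, whereas for NSMCE2, CYRIB and ASAP1 the arrays labelled WTAP lie above the mock arrays.

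Among 25 tested genes on other chromosomes that MYC is known to activate, 0 rose and 4 fell, with a median log2 fold change of -0.14 (all tested genes 0.0030, 9.91% called lower). These were EIF4E, which binds the messenger RNA cap (fell by 0.86), NOLC1, a nucleolar phosphoprotein (fell by 0.83), ODC1, the first enzyme of polyamine synthesis (fell by 0.72), and NOP16, a ribosome assembly factor (fell by 0.50). EIF4E lies on chromosome 4, whose 408 tested genes had a median of -0.20, and NOLC1 on chromosome 10, whose 418 had one of -0.45; their part in the result was not tested. The 4 calls were fragile. The count of falls was 0 without WTAP array 4, 1 without WTAP array 5, mock array 4 or mock array 6, 2 without mock array 5 or the filter on dim probes, and 6 in the authors' deposited table of processed values or without background correction. The EIF4E call was also lost with the array number as a block (limma adjusted p = 0.0610, over 15 alternatives 0.00473 to 0.134).

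The largest rises on 8q came from genes of unlike roles spread over the arm. ALKAL1, a secreted ligand of the receptor tyrosine kinases ALK and LTK, read 5.54, 6.005 and 5.62 on mock arrays 4, 5 and 6 and 7.18, 7.30 and 7.33 on WTAP arrays 4, 5 and 6. It was detected on 1 mock array, so that it passed the detection rule through the arrays labelled WTAP and its mock level lay near background, and it rose by 1.55 ± 0.14 (SE, limma adjusted p = 0.000514). LRRCC1, a centrosomal protein, read 7.17, 6.50 and 6.30 on the mock arrays and 7.98, 8.18 and 8.42 on the arrays labelled WTAP, a rise of 1.54 ± 0.23 (SE, adjusted p = 0.00349). PAG1, a membrane adaptor that recruits the kinase CSK to restrain SRC family kinases, read 5.88, 5.98 and 5.72 on the mock arrays and 7.26, 7.07 and 7.09 on the arrays labelled WTAP, a rise of 1.28 ± 0.12 (SE, adjusted p = 0.000514). It too was detected on 1 mock array, and a second probe was not detected on the mock arrays, so the size of the change is uncertain for this gene as for ALKAL1. None of these 3 genes had overlapping groups, which the rule for naming them required.

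MAL2, a membrane protein of apical transport in polarized epithelia, was bright in both lines. It read 13.31, 13.34 and 13.09 on the mock arrays and 14.36, 14.29 and 14.31 on the arrays labelled WTAP, a rise of 1.07 ± 0.11 (SE, limma adjusted p = 0.000837). At the telomere, the zinc finger pseudogene ZNF252P rose by 1.09 and C8orf33 by 0.97, and these were the fifth and the ninth largest of the rises. TBC1D31, a centrosomal protein with a TBC domain, rose by 1.01, TRAPPC9, a subunit of the TRAPP II tethering complex of the Golgi, by 1.01, and MTBP, which takes part in the firing of replication origins, by 0.96. The adjusted p of these 5 was 0.000697 to 0.00286 in limma, and the calls of MAL2 and of these 5 held under all alternatives listed in the closing section.

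LYPD2, ZFHX4 and GRHL2 completed the 12 largest rises and were the least secure of them. LYPD2, of the LY6 family of surface proteins, read 6.21, 6.24 and 6.08 on the mock arrays and 7.80, 7.91 and 6.58 on the arrays labelled WTAP, so that WTAP array 6 lay much nearer to the mock arrays. It rose by 1.25 ± 0.31 (SE, limma adjusted p = 0.0274), and the call was lost without any one of mock arrays 4, 5 and 6 (adjusted p = 0.0673, 0.0653 and 0.0777) or without WTAP array 4 or 5 (0.0973 and 0.0767, over 15 alternatives 0.000438 to 0.0973). ZFHX4, a homeobox and zinc finger factor detected on 1 mock array, rose by 0.97 ± 0.26 (SE, adjusted p = 0.0335), which no longer passed when dim probes were kept (0.0566) or when 1 of 4 arrays was dropped (mock 5, 0.0925, mock 6, 0.0993, WTAP 4, 0.111, and WTAP 5, 0.0916), over 14 alternatives 0.00517 to 0.111. ZFHX4 passed the detection rule through the arrays labelled WTAP, so the size of its change is uncertain. GRHL2, a transcription factor that maintains epithelial junctions, rose by 0.96 ± 0.23 (SE, adjusted p = 0.0226), a call lost without WTAP array 4 or 5 (0.0722 and 0.0701, over 15 alternatives 0.00537 to 0.0722).

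**Figure D5:**
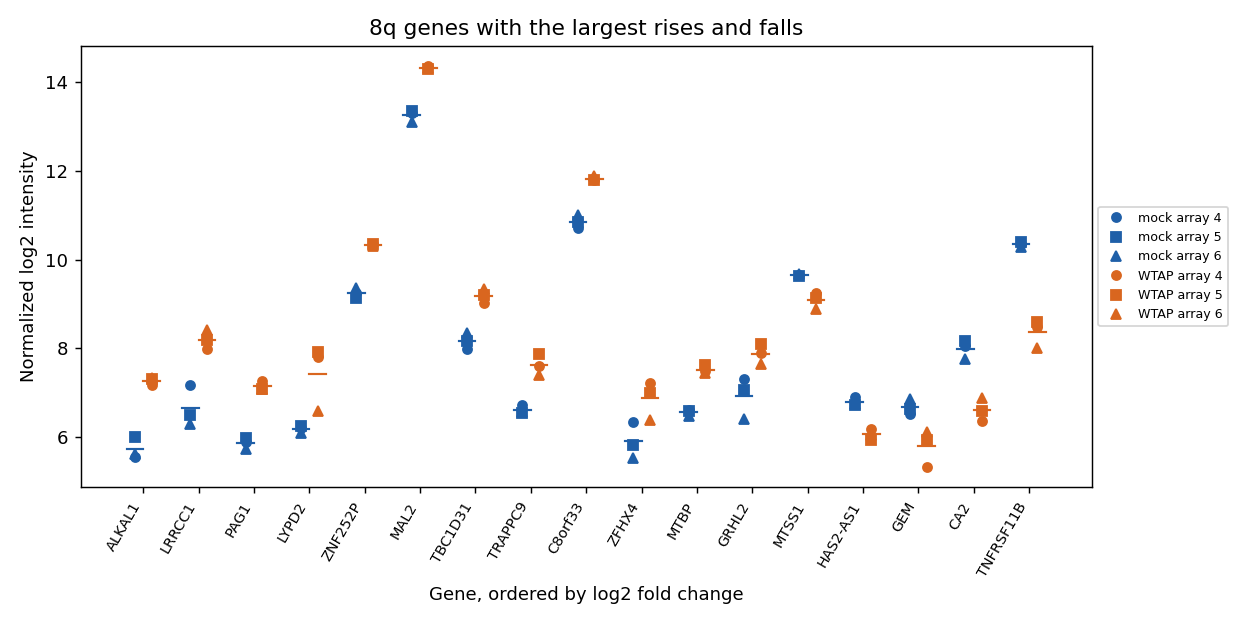
Normalized log2 intensity (y axis) on each of the 6 arrays for the 12 genes of 8q with the largest rises and the 5 that fell (x axis, ordered by log2 fold change); short lines are group means. The largest separations are those of ALKAL1 and LRRCC1 upward and of TNFRSF11B downward. Levels of different genes come from different probes and are not comparable.

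The 5 falls lay at separate places along the arm, with TNFRSF11B and HAS2-AS1 in the same 15-gene stretch. TNFRSF11B, osteoprotegerin, a secreted decoy receptor that binds the cytokine RANKL, read 10.34, 10.39 and 10.29 on mock arrays 4, 5 and 6 and 8.49, 8.59 and 8.01 on WTAP arrays 4, 5 and 6. It fell by 1.98 (SE 0.16, limma adjusted p = 0.000352), that is 3.93-fold. The tested genes on either side of it, EXT1, a polymerase of heparan sulfate, and MAL2, rose by 0.51 and 1.07, and the median of the 10 tested genes on each side was 0.36. CA2, the cytosolic carbonic anhydrase that hydrates carbon dioxide and serves bicarbonate secretion in bile ducts, read 8.05, 8.17 and 7.77 on the mock arrays and 6.35, 6.59 and 6.87 on the arrays labelled WTAP. It fell by 1.39 (SE 0.16, adjusted p = 0.00138), its second probe fell by 1.15, and its neighbours had a median of 0.33. Of 5 carbonic anhydrase genes of the arm 2 were tested, and the value of CA13, named for its place beside CA2, was 0.36 ± 0.15 (adjusted p = 0.139).

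GEM, a small GTP-binding protein that inhibits voltage-gated calcium channels, fell by 0.87 (SE 0.21, limma adjusted p = 0.0213). It was detected on 1 array labelled WTAP, so that it passed the detection rule through the mock arrays and the size of its change is uncertain. Its second probe had a value of -0.29 ± 0.26 (adjusted p = 0.478 over all detected probes), and the call was lost without mock array 5 or 6 (0.0573 and 0.0678, over 14 alternatives 0.0104 to 0.0678). HAS2-AS1, the antisense transcript of the hyaluronan synthase gene HAS2, fell by 0.73 (SE 0.11, adjusted p = 0.00427) and was detected on 2 arrays labelled WTAP. HAS2 was not among the tested genes. MTSS1, which bends membranes and binds actin, fell by 0.56 (SE 0.12, adjusted p = 0.0165), with -0.48 ± 0.20 on its second probe. Its call was lost without mock array 4 or 5 (0.0503 and 0.0504, over 15 alternatives 0.00392 to 0.0504). The medians of the 10 tested genes on each side of GEM, HAS2-AS1 and MTSS1 were 0.29, 0.46 and 0.10.

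The gene lists by role are read against 10.5% called higher and 9.91% lower over all tested genes, and against 27.1% and 2.02% on 8q; no list was tested against the arm. All 17 tested genes of DNA replication and repair had changes above 0. Of these, 8 rose (47.1%) and 0 fell, and log2 fold changes ran from 0.08 to 0.96 around a median of 0.40. Besides MTBP and NSMCE2, PRKDC, the catalytic subunit of the kinase that joins broken DNA ends, read 10.51, 10.11 and 10.31 on the mock arrays and 11.10, 11.06 and 11.06 on the arrays labelled WTAP, a rise of 0.76 ± 0.13 (SE, limma adjusted p = 0.00544). Further PRKDC probes had values of 0.47 and 0.38 (limma over all detected probes, adjusted p = 0.0426 and 0.237), and on the latter the groups overlapped. TOP1MT, the mitochondrial topoisomerase, rose by 0.72 (adjusted p = 0.00311) and ATAD2, a chromatin-bound ATPase with a bromodomain, by 0.68 (adjusted p = 0.0148). The ATAD2 call was lost without WTAP array 5 (0.0509, over 15 alternatives 0.00102 to 0.0509). Named after their values were seen, MCM4 of the replicative helicase rose by 0.52, CHRAC1, a histone-fold protein, by 0.45, and NBN, of the complex that senses double-strand breaks, by 0.40. The count of rises was 4 without WTAP array 5 and 5 without WTAP array 4, mock array 5 or mock array 6.

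General transcription and RNA processing genes gave 6 rises (33.3%) and 0 falls among 18 tested, with a median of 0.24. MED30, a subunit of the Mediator complex, rose by 0.70 ± 0.12 (SE, limma adjusted p = 0.00663), TCEA1, an elongation factor that rescues stalled polymerase, by 0.53 (adjusted p = 0.0177), STAU2, which binds double-stranded RNA, by 0.52 (adjusted p = 0.0310), and CPSF1, of the cleavage and polyadenylation machinery, by 0.49 (adjusted p = 0.0131). Dropping WTAP array 4, mock array 5 or mock array 6 left 2 rises. The highest adjusted p over 15 alternatives was 0.0966 for TCEA1, with the mean of its detected probes, and 0.0959 for STAU2 and 0.0510 for CPSF1, without WTAP array 4 and mock array 5. Of 14 genes of translation and ribosome assembly, 2 rose (14.3%) and 0 fell, with a median of 0.24, a share near that of all tested genes. These were EIF3H, a subunit of an initiation factor (0.50, adjusted p = 0.0158), and EEF1D, of the elongation factor 1 complex (0.38, adjusted p = 0.0308). Neither passed without WTAP array 5 (0.0546 for EIF3H, over 15 alternatives 0.000870 to 0.0609, and 0.0909 for EEF1D, over 15 alternatives 0.00184 to 0.0909) or without mock array 5. The EEF1D call was further lost without mock array 4 or 6 or WTAP array 4 and with median scaling of the arrays, and 4 genes of this list rose with no background correction.

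Of 18 genes of membrane traffic and the proton pump, 6 rose (33.3%) and 0 fell, with a median of 0.35. Besides MAL2, TRAPPC9 and ASAP1, SNX16, a sorting nexin of late endosomes, read 7.23, 7.35 and 6.996 on the mock arrays and 8.13, 7.998 and 8.05 on the arrays labelled WTAP, a rise of 0.87 ± 0.12 (SE, limma adjusted p = 0.00310). TPD52, a vesicle protein often raised in carcinomas, rose by 0.69 (adjusted p = 0.00797), but a second probe had a value of -0.13, and the mean of both did not pass (0.102, over 15 alternatives 0.00225 to 0.102). The count of rises in this list was 10 with no background correction, with a trended and robust variance and in the authors' deposited table of processed values.

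Of 17 genes of lipid and small molecule metabolism, 5 rose (29.4%) and 0 fell, with a median of 0.30. AZIN1, which frees ornithine decarboxylase from its inhibitor, rose by 0.81 ± 0.14 (SE, limma adjusted p = 0.00648), with 0.67 and 0.58 on its other 2 probes, and DGAT1, which makes triglycerides, by 0.77 ± 0.13 (adjusted p = 0.00556). NAPRT, which turns nicotinic acid into a precursor of NAD, rose by 0.66 (adjusted p = 0.0156) and RDH10, a retinol dehydrogenase, by 0.44 (adjusted p = 0.0466). The RDH10 call was lost with the array number as a block (adjusted p = 0.0510, over 15 alternatives 0.0205 to 0.124), and without any 1 array but WTAP array 6. The NAPRT call was lost without WTAP array 4 or 5 or mock array 5 (highest adjusted p = 0.0590 over 15 alternatives). Rises numbered 2 without WTAP array 4 or 5 and 3 without mock array 4, 5 or 6, and 1 gene fell without WTAP array 6. In the ubiquitin system 2 of 12 rose (16.7%, between the shares of all tested genes and of 8q) and 0 fell, with a median of 0.23: NTAQ1, an amidase of the N-degron pathway, by 0.60 (adjusted p = 0.00598) and ZFAND1, which binds the segregase p97, by 0.38 (adjusted p = 0.0304). The ZFAND1 call was lost without any 1 array (highest adjusted p = 0.136 over 15 alternatives), and 5 genes of the list rose with no background correction.

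Signalling genes were mixed, with 3 rises (18.8%) and 1 fall (6.25%) among 16 tested and a median of 0.23. PAG1 and TNFRSF11B, described above, had the largest changes. STK3, a kinase of the Hippo pathway, read 10.01, 9.93 and 9.63 on the mock arrays and 10.81, 10.85 and 10.50 on the arrays labelled WTAP, a rise of 0.87 ± 0.15 (SE, limma adjusted p = 0.00642). SGK3, a kinase on endosomes, rose by 0.56 (adjusted p = 0.0219), which missed the threshold with mock array 5 or 6 dropped (0.0723 and 0.0689) or WTAP array 5 or 6 (0.0611 and 0.0516, over 15 alternatives 0.0152 to 0.0723). In this list 6 genes rose with no background correction, with a trended and robust variance and in the authors' deposited table of processed values. Without WTAP array 5 there were 2 falls.

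Of 16 sequence-specific transcription factors tested, 3 rose (18.8%) and 0 fell, and 9 had a change above 0, with a median of 0.38. Besides ZFHX4 and GRHL2, KLF10, a factor induced by TGF-beta, rose by 0.54 (limma adjusted p = 0.0401), with 0.88 and -0.04 on its other 2 probes. Its call was lost without any 1 array but WTAP array 5 (highest adjusted p = 0.110 over 15 alternatives). The list had 0 rises without WTAP array 4, 1 without WTAP array 5, mock array 5 or mock array 6, and 5 with the array number as a block. Of 7 zinc finger genes near the telomere 4 rose (57.1%) and 0 fell, with a median of 0.64: ZNF16 by 0.71 (adjusted p = 0.00811), GLI4 by 0.66 (0.0476), ZNF34 by 0.64 (0.0497) and ZNF7 by 0.60 (0.0144). GLI4 and ZNF34 each lost the call without most of the arrays (highest adjusted p = 0.130 and 0.150 over 15 and 14 alternatives), and ZNF7 without mock array 5 (highest 0.0550 over 15). The number of rises was 1 without mock array 5 and 2 without mock array 6 or WTAP array 4, with median scaling of the arrays and in the authors' deposited table of processed values.

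Of 12 epithelial, adhesion and matrix genes 3 rose (25%) and 1 fell (8.33%), with a median of 0.40. With GRHL2 and EXT1, SCRIB, a scaffold of cell polarity, rose by 0.45 (limma adjusted p = 0.0245), and MTSS1 was the gene that fell. The SCRIB call was lost without WTAP array 4 or mock array 5 or 6 and with the mean of its detected probes (highest adjusted p = 0.0890 over 15 alternatives). Further SCRIB probes had values of 0.44 and 0.07 (limma over all detected probes, adjusted p = 0.0206 and 0.852), and on the latter the groups overlapped. Rises numbered 1 without WTAP array 4, 5 with no background correction and 6 when detection on all 6 arrays was required. In the LY6 cluster, a group of small lipid-anchored surface proteins, 3 of 10 genes were tested, of which LYPD2 and PSCA rose and 0 fell, and 1 rose without any 1 array but WTAP array 6. PSCA, a prostate stem cell antigen also found in other epithelia, was detected on 1 mock array. It thus passed the detection rule through the arrays labelled WTAP, and the size of its change is uncertain. PSCA read 5.72, 5.996 and 5.75 on the mock arrays and 6.76, 6.32 and 6.75 on the arrays labelled WTAP, a rise of 0.79 ± 0.15 (SE, limma adjusted p = 0.00999).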

How the data were processed

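Total RNA was hybridised to 6 Illumina bead arrays, 3 for each group. The authors deposited a table of raw linear probe intensity. Beside every intensity the deposited table gives a detection p-value, and there was a second deposited table of processed intensity that was quantile normalized, judging from its values. The submitters' processing notes name BeadStudio 3.3. How background was treated is not stated there.

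The neqc function (limma 3.58.1, R 4.3.3) estimated background through the detection p-values, added an offset of 16, quantile normalized the arrays and took log2. Of 29285 probes 27988 had 1 gene symbol, 0 several and 1297 none, and 27819 symbols were updated by gene identifier from the RefSeq table of GRCh38.p14, which served for names, gene types and gene order only. Probes detected on at least 3 arrays (15830) were kept, the brightest for each gene (11586 genes). Groups were compared with lmFit and eBayes and Benjamini-Hochberg adjustment at 0.05, which was tested on simulated data: of 100 genes with a log2 change of 1 in 11586, 73 were called, and 23 of 100 with 0.5. Those were the only changed genes in the simulation, whereas 20.4% of the tested genes were called in the data. The adjustment depends on that share, so the simulated rates may not carry over.

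Arrays of the same number deviated together (correlations across genes of deviations from group means 0.12, 0.21 and 0.23 for numbers 4, 5 and 6), so the titles' numbers were taken as pairs and used as a block in an alternative. Precision is limited by how few arrays there were. The members and lists were chosen with earlier results of these data known. The text names MYC and its 4 nearest tested genes on each side, the 12 largest rises and up to 8 falls with groups that did not overlap, up to 4 called members of each list, and genes marked as named for their place, kind or after their values were seen.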

Additional observations from a re-analysis of the deposited data

How the results depend on the processing

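The median log2 fold change of 8q genes stayed above 0 under every alternative run, and so did its difference from the 8p median. With the authors' deposited processed table the medians of 8q and 8p, their difference and the lowest and highest segment medians were 0.19, 0.075, 0.12, 0.11 and 0.24. With no background correction these 5 were 0.20, 0.076, 0.12, 0.11 and 0.25. Keeping dim probes gave 0.12, 0.033, 0.087, -0.054 and 0.30. Median scaling gave 0.23 for 8q, 0.090 for 8p, and 0.16 and 0.33 for the lowest and highest segments. An offset of 50 gave 0.23 for 8q, 0.12 for the difference and 0.29 for the highest segment. The mean of all detected probes of a gene gave 0.082 for 8p, 0.19 for the difference, 0.23 and 0.33 for the segments, and -0.49 for MYC minus its neighbours. Detection on all 6 arrays gave 3 falls on 8q and 0.24 for the lowest segment. Segments of 15 genes had medians from -0.064 to 0.45. The cause of these moves was not tested.

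With any 1 array dropped, changed genes numbered from 1379 to 2272 (683 to 1158 higher, 696 to 1114 lower), against 2366 (1218 and 1148) with all arrays. Rises on 8q ranged from 36 to 60 and falls from 3 to 7. The 8q median ranged from 0.26 to 0.31, the 8p median from 0.088 to 0.13, their difference from 0.14 to 0.21, the lowest segment from 0.13 to 0.24 and the highest from 0.30 to 0.38. MYC ranged from -0.25 to -0.12 and MYC minus its neighbours from -0.45 to -0.25. Among named genes that did not pass, the sign turned for LRATD2 without mock array 4 (0.021, the lowest being -0.15), MIR1204 without mock array 5 (0.18, the lowest being -0.44) and SQLE without WTAP array 5 (-0.027) or mock array 6 (-0.091). Over the 15 alternatives the adjusted p of MYC was 0.114 to 0.541 (limma).

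With the array number as a block 76 genes rose and 6 fell on 8q; the pairing changed the calls of EIF4E and RDH10 among named genes and, by over 1.5 times, the counts of the lists of sequence-specific transcription factors (5 rises, 1 fall), the ubiquitin system (4 rises) and epithelial genes (5 rises). Calls of TCEA1, STAU2, CPSF1, EIF3H, EEF1D, NAPRT, ZFAND1, SCRIB, KLF10, GLI4, ZNF34 and ZNF7 were each lost without at least 1 array. Of 67 rises on 8q, 54 were called with median scaling and 64 with no background correction. Spots near background bound what the 155 dim genes of 8q can show.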
